A study of Bos taurus with 6 samples.

Results

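bta-miR-34a, bta-miR-34b, bta-miR-34c, bta-miR-449a, bta-miR-449b, bta-miR-449c and bta-miR-210 were examined in heat-stressed bovine granulosa cells. They were chosen by name as miRNAs linked to stress signalling, and all 7 were found among the 1028 bovine miRNAs listed in every library. Granulosa cells, the follicular cells around the oocyte, were aspirated from bovine follicles of 3 to 6 mm obtained at a slaughterhouse and cultured for 24 h in medium with exosome-depleted serum. The control group then stayed at 37 °C and the heat stress (HS) group was moved to 42 °C, in both cases for another 24 h. Each group had 3 small RNA libraries, but which animals stand behind each library is not given in the sources used here, so p-values measure the spread between these libraries.

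miRNAs of the miR-34 family are textbook transcriptional targets of p53, the factor that responds to DNA damage and other stress, and they repress cell cycle and survival genes. The miR-449 miRNAs are usually grouped with miR-34 because their seeds, the bases near the 5′ end that pair with target mRNAs, are alike. Sequences were not compared here. Both are also known for high levels in multiciliated epithelia. miR-210 has a different seed and is the best known miRNA induced by hypoxia-inducible factor 1, with mitochondrial iron-sulphur cluster assembly among its targets. Whether exposure to 42 °C moved these miRNAs in granulosa cells was the question of the comparison.

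The genes were located by name in the RefSeq annotation of the assembly ARS-UCD2.0, which differs from the assembly used for mapping, so no positions are given. All 7 had an entry there. MIR34B and MIR34C were direct neighbours, and both overlapped BTG4 and HOATZ. MIR449C, MIR449B and MIR449A followed each other inside CDC20B. On one side the uncharacterised gene LOC104975246 came next and then MCIDAS, a regulator of multiciliated cell formation. MIR34A overlapped GPR157. MIR210 lay between PHRF1 and RASSF7 and overlapped the uncharacterised gene LOC132344225. miR-34 and miR-449 miRNAs resemble each other closely, and how reads fitting more than 1 of them were shared is not stated, so the split within miR-34b and miR-34c and within the miR-449 miRNAs is uncertain.

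The reads recovered from the normalised values of the listed miRNAs came to 2076239 to 4590971 per library, and control replicate 1 had the fewest. These totals cover the listed miRNAs only. In the paper's sequencing summary, reads mapped to annotated miRNAs were a minority of the quality-passed reads in every library, with the smallest share in control replicate 1. Values are normalised read counts, that is, CPM (read counts scaled to a common library size) with TMM (trimmed mean of M-values) scaling, and 3 reads correspond to 0.639 to 1.465 on that scale. All 5 miRNAs of a list linked to granulosa cells had reads in every library, with group means from 9.55 and 7.12 for bta-miR-383 to 180300 and 185700 for bta-miR-21-5p (control and HS, n = 3 each). Of 7 blood cell miRNAs, the red cell miRNAs bta-miR-451 and bta-miR-144 were near 0, at group means of at most 1.46 and 0.162, but bta-miR-486, also abundant in red cells, had means of 30.6 and 43.1. Among leukocyte miRNAs, bta-miR-223 had means of 281.4 and 221, bta-miR-142-5p of 349.6 and 354.5, bta-miR-150 of 129.5 and 98.8 and bta-miR-142-3p of 17.7 and 14.3 (control and HS). The summed level of that list was 730.2 to 895.4 in control and 676.6 to 799.8 in HS libraries. Of the miRNAs that could be tested, 5 each of the granulosa, blood and epithelial lists, 0 reached a limma adjusted p of 0.2, against 7.12% of all tested. An unadjusted limma p under 0.05 was found for 0 of them, against 14.5% of all tested. As these were bulk RNA samples, fewer cells of a type and less RNA per cell cannot be told apart.

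The members spanned about 3 orders of magnitude, and bta-miR-34a, bta-miR-449a and bta-miR-210 held most of the reads. bta-miR-34a was the most abundant member in both groups and ranked 63 of 1028 by its mean over all libraries, followed by bta-miR-449a at rank 94 and bta-miR-210 at rank 99. bta-miR-449b ranked 250, bta-miR-34c 284, bta-miR-449c 291 and bta-miR-34b 446. With the study's detection rule, a normalised count of 10 or more in at least 2 libraries of a group, 4 members were detected in control and in HS cells, and they were bta-miR-34a, bta-miR-449a, bta-miR-449b and bta-miR-210 in both groups. Mature miRNAs differ little in length, so the levels compared here are normalised CPM with no correction for length.

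In control cells the mean of bta-miR-34a was 3.25 times that of bta-miR-210, the next in order, and their ranges were separate. bta-miR-210 and bta-miR-449a had nearly equal means in control cells (ratio 1.01) and overlapping ranges. In HS cells bta-miR-449a stood above bta-miR-210 by mean (ratio 1.25), and their ranges still overlapped. The step to bta-miR-449b was 27.7-fold below bta-miR-449a in control cells and 28.7-fold below bta-miR-210 in HS cells. bta-miR-34c and bta-miR-449c overlapped in both groups, and bta-miR-34b was lowest, with ranges separate from its neighbour in each.

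**Figure D1:**
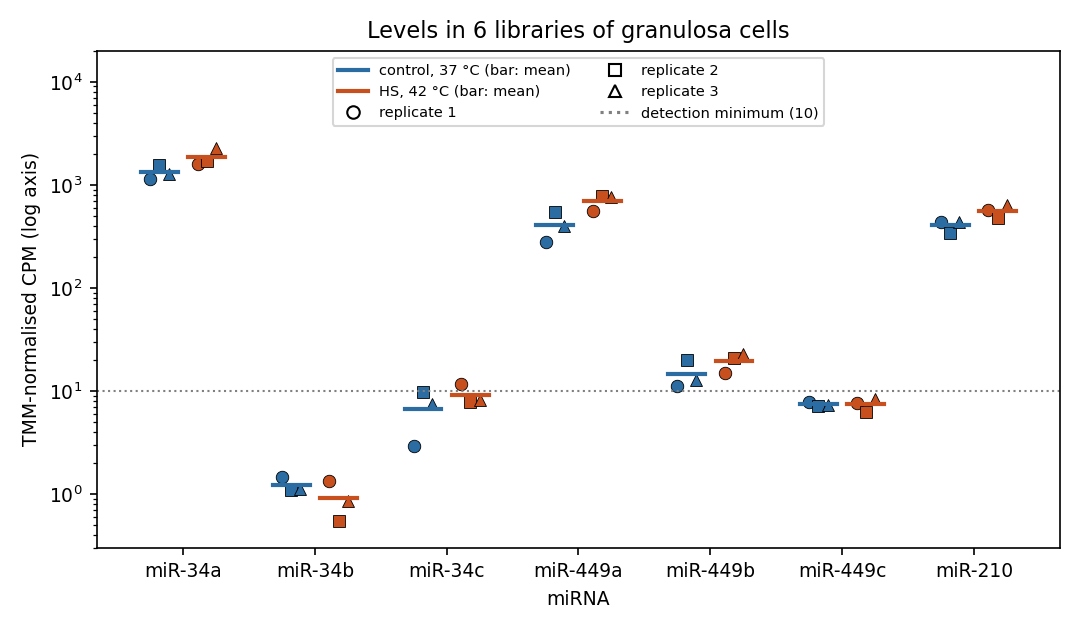
TMM-normalised CPM (log axis) of the 7 miRNAs in each library, with control cells at 37 °C in blue and HS cells at 42 °C in orange, symbols for replicates 1 to 3 and bars for group means. bta-miR-34a, bta-miR-449a and bta-miR-210 lie well above the dotted detection minimum of 10 and their control and HS points do not overlap, while bta-miR-34b, bta-miR-34c, bta-miR-449b and bta-miR-449c are low and their groups overlap.

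bta-miR-34a, the family member most closely tied to p53, had normalised counts of 1137, 1570 and 1267 in control replicates 1, 2 and 3. In HS replicates 1, 2 and 3 it had 1585, 1699 and 2256. Every HS library was above every control library, though HS replicate 1 exceeded control replicate 2 only slightly. The group means were 1325 ± 222 and 1847 ± 358.9 (SD, n = 3 each). This amounted to 0.48 ± 0.187 (SE) log2 units, with a 95% interval of 0.03 to 0.92. The limma p was 0.0388 before and 0.306 after adjustment over the 365 miRNAs tested, so the difference did not pass the threshold of 0.2.

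bta-miR-34b and bta-miR-34c, the neighbouring pair of the family, were scarce. For bta-miR-34c, control replicates 1, 2 and 3 yielded 6, 45 and 27 reads, and the HS replicates yielded 35, 29 and 38. On the normalised scale the control libraries were at 2.93, 9.78 and 7.52 and the HS libraries at 11.6, 7.89 and 8.09. Control replicate 1 was the lowest, and the other control libraries lay within or close to the HS range. The log2 fold change was 0.50 ± 0.397 (SE, 95% interval -0.44 to 1.44, limma adjusted p = 0.66). Without control replicate 1 it was 0.07, and without control replicate 2 it was 0.80.

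For bta-miR-34b the control libraries yielded 3, 5 and 4 reads and the HS libraries 4, 2 and 4, a total of 12 against 10. The exact Poisson 95% interval of a single library ran from 0.242 to 7.22 for the 2 reads and from 1.62 to 11.7 for the 5 reads. These intervals overlap, so a difference of this size could not be told from counting error. It did not pass the filter on low reads and had no reported test. Without the filter its limma adjusted p was 0.833.

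Among the miR-449 miRNAs, bta-miR-449a was the abundant one. Its normalised counts were 276.8, 541.4 and 395.1 in control replicates 1, 2 and 3. HS replicates 1, 2 and 3 were at 558.4, 773.4 and 765.8. The groups did not overlap, with HS replicate 1 just above control replicate 2. The mean was 404.4 ± 132.5 (SD, n = 3) at 37 °C and 699.2 ± 122 (SD, n = 3) at 42 °C. At 0.83 ± 0.268 (SE), its log2 fold change was the largest of the 6 members tested. Its 95% interval was 0.19 to 1.46 on the log2 scale, or 1.14-fold to 2.75-fold. The limma p was 0.018 before and 0.22 after adjustment, just beyond the threshold of 0.2. Leaving out control replicate 2 brought the adjusted p to 0.147, leaving out HS replicate 2 brought it to 0.518, and the log2 fold change without control replicate 1 was 0.58.

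bta-miR-449b, encoded beside bta-miR-449a, was at 11.2, 19.8 and 12.8 normalised counts in the control replicates and reached 14.9, 20.9 and 22.8 after HS. Replicate 2 of the control group lay within the HS range, so the groups overlapped. The log2 fold change was 0.41 ± 0.275 (SE, 95% interval -0.24 to 1.07, limma adjusted p = 0.589). It was 0.26 without control replicate 1 and 0.64 without control replicate 2. bta-miR-449c, the third of the cluster, was at 7.81, 7.17 and 7.24 in the control replicates and at 7.63, 6.26 and 8.30 after HS. Its values were nearly level across all 6 libraries, with a log2 fold change of -0.01 (SE 0.195, 95% interval -0.47 to 0.45, limma adjusted p = 0.981). Both rested on few reads, 23 to 107 per library for bta-miR-449b and 16 to 39 for bta-miR-449c.

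bta-miR-210, the hypoxia-linked miRNA, had 440.4, 343.7 and 437.7 normalised counts in control replicates 1, 2 and 3. In HS replicates 1, 2 and 3 it had 567.7, 474 and 640. The lowest HS library was above the highest control library. Group means were 407.3 ± 55.1 and 560.6 ± 83.3 (SD, n = 3 each), 0.46 ± 0.174 log2 units apart (SE, 95% interval 0.04 to 0.87). The limma p was 0.0344 before and 0.298 after adjustment.

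**Figure D2:**
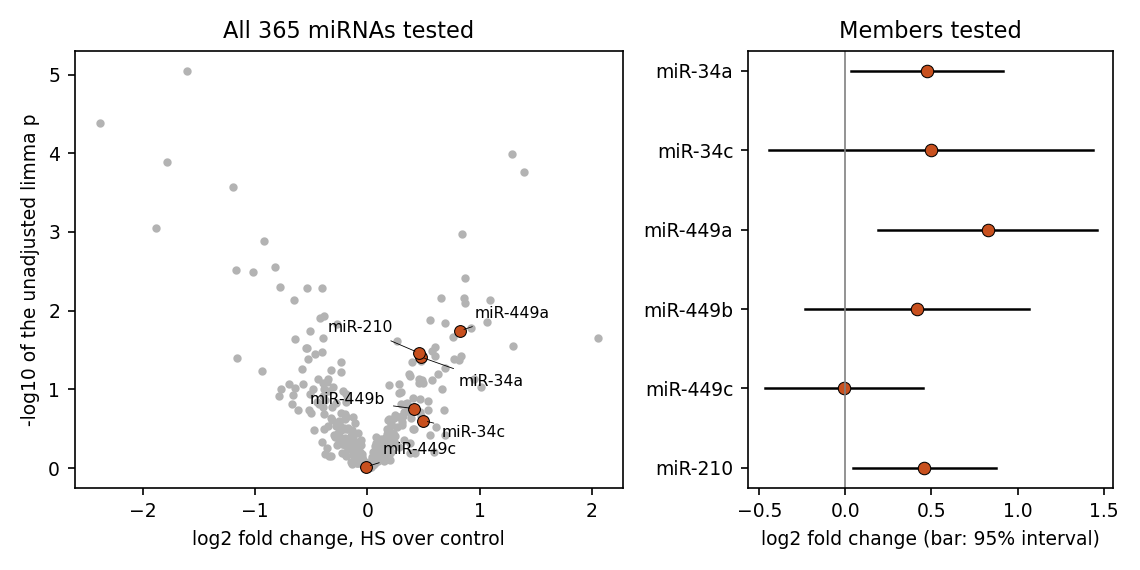
Left, log2 fold change of HS over control against -log10 of the unadjusted limma p for the 365 miRNAs tested, with the 6 members that passed the filter in orange and the others in grey; right, the log2 fold changes of those members with 95% intervals. The intervals of bta-miR-34a, bta-miR-449a and bta-miR-210 lie above 0 before adjustment, and all 3 points sit among many grey points of similar size.

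Read against all miRNAs tested, the reported limma fit, which had no replicate block, called no member. It gave an adjusted p of at most 0.2 to 0 of the 6 members tested, where 7.12% of the 365 tested miRNAs had one and 3.01% also changed by 1 log2 unit or more. On the recovered reads, edgeR's quasi-likelihood test also called 0 of 6, against 6.85% of all tested, and so did limma-voom, against 7.12%. The DESeq2 Wald test called 1, bta-miR-449a (adjusted p = 0.104), against 7.44% of the 336 miRNAs to which it gave an adjusted p. At an unadjusted limma p under 0.05 there were 3 members, bta-miR-34a, bta-miR-449a and bta-miR-210, where 14.5% of the miRNAs tested were at that level. All 3 were higher in HS cells, against 7.4% of the miRNAs tested in that direction. The groups did not overlap for the same 3 members, with HS higher, against 9.59% of all tested in that direction and 20.0% in either. These 3 were also the members with the most reads. The median log2 fold change was 0.47 over the 6 members and 0.00 over all miRNAs tested (-0.0015), and 5 of the 6 were above 0, against 49.6% of all tested. A log2 fold change of 0.4 or more was seen for the same 5 members, all but bta-miR-449c, against 14.5% of all tested. This cutoff was not planned and lies just under the smallest of the 5 values, 0.41 for bta-miR-449b, so the count restates those values. Without HS replicate 3, bta-miR-34a, bta-miR-449b and bta-miR-210 were at 0.32, 0.30 and 0.36, and bta-miR-34c and bta-miR-449a at 0.57 and 0.75.

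A pair of scalings shifted the whole table. Upper quartile factors computed on the filtered miRNAs moved the median log2 fold change of all tested miRNAs to 0.18, and those computed on all listed miRNAs moved it to -0.18. Relative to these medians, bta-miR-449a was at 0.84 and 0.82, bta-miR-34a at 0.49 and 0.47 and bta-miR-210 at 0.48 and 0.45, against 0.83, 0.48 and 0.46 in the reported fit. Under the first of these scalings all 3 had a limma adjusted p of at most 0.2, from 0.0995 to 0.152. Of the 365 miRNAs tested 27 did, 19 of them higher in HS cells, against 26 and 11 in the reported fit. Under the second none of the 3 did, from 0.354 to 0.576, where 34 of the 365 did, 7 of them higher.

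**Figure D3:**
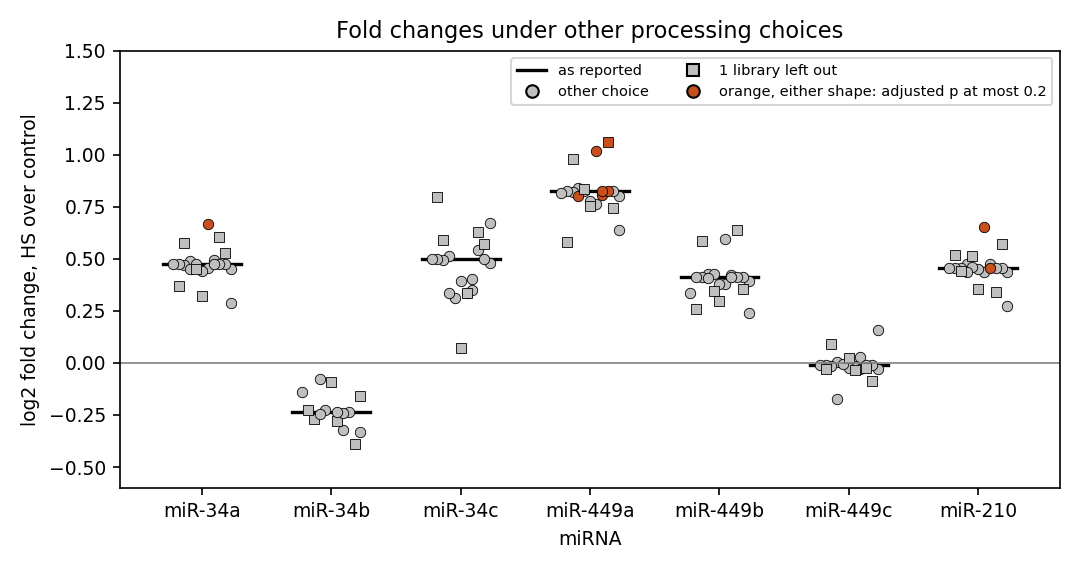
Log2 fold changes of HS over control for the 7 miRNAs as reported (black bars), under other processing choices (circles) and with 1 library left out (squares), in orange where the adjusted p was at most 0.2. bta-miR-34a, bta-miR-34c, bta-miR-449a, bta-miR-449b and bta-miR-210 stay above 0 throughout, bta-miR-34b stays below 0 and bta-miR-449c falls on both sides.

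Summed, the 6 miR-34 and miR-449 members took 0.142%, 0.218% and 0.17% of the reads of control replicates 1, 2 and 3, against 0.21%, 0.253% and 0.313% for HS replicates 1, 2 and 3. The ranges overlapped, as control replicate 2 exceeded HS replicate 1. The mean share was 0.176% ± 0.0383 without and 0.259% ± 0.0518 with HS (SD, n = 3 each), and no test was made of this sum over members. Within this sum bta-miR-34a supplied 75.7% ± 3.1 of the control reads and 71.4% ± 3.2 of the HS reads, and bta-miR-449a 22.6% ± 3.04 and 27.2% ± 3.2 (SD, n = 3 each). The remaining 4 members together gave 1.31% to 1.76% of the sum in any library. bta-miR-210 took 0.0407% ± 0.00516 of all control reads and 0.056% ± 0.00892 of all HS reads.

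Ratios within a library do not depend on its scaling apart from the pseudocount of 1, and 5 of them were compared between groups with an exact two-sided permutation test, for which the smallest possible p with 3 against 3 libraries is 0.1. The log2 ratio of bta-miR-449b to bta-miR-449a, from neighbouring genes of the same cluster, lay at -4.51, -4.71 and -4.84 without HS and at -5.13, -5.14 and -5.01 with HS. The groups did not overlap, and the HS mean was lower by 0.41 on the log2 scale (exact permutation p = 0.1, adjusted over the 5 ratios 0.333). bta-miR-449a relative to bta-miR-34a averaged -1.75 ± 0.258 (SD) at 37 °C and -1.40 ± 0.23 (SD) at 42 °C, a difference of 0.35 with overlapping groups (exact permutation p = 0.2, adjusted 0.333). The difference was 0.21 without control replicate 1 and 0.22 without HS replicate 2.

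For bta-miR-210 relative to bta-miR-34a no difference beyond the spread of the libraries was seen, at -0.02 log2 units between groups (exact permutation p = 1, n = 3 each). For bta-miR-34c relative to bta-miR-34a the difference was 0.02 (exact permutation p = 1, n = 3 each). For bta-miR-34b relative to bta-miR-34c the control values were -0.67, -2.37 and -2.01 and the HS values -2.44, -2.53 and -2.30. Control replicate 1, with 3 and 6 reads for the pair, stood apart (difference -0.73, exact permutation p = 0.2, adjusted 0.333), and without it the difference was -0.23. The ratios that involve bta-miR-449a or bta-miR-210 were chosen after their values had been seen.

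**Figure D4:**
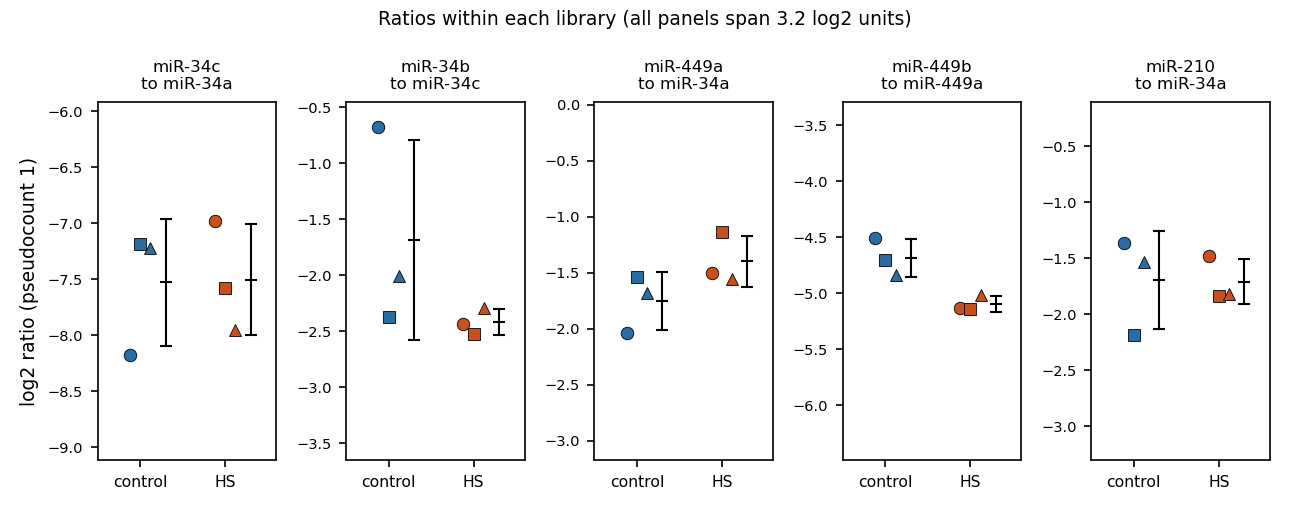
Log2 ratios of pairs of members within each library (pseudocount 1), control in blue and HS in orange, with circles, squares and triangles for replicates 1, 2 and 3 and black bars for the group mean ± SD (n = 3). Only the ratio of bta-miR-449b to bta-miR-449a has groups that do not overlap, with HS values from -5.14 to -5.01 below control values from -4.84 to -4.51.

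The spread between libraries was larger than counting error for the abundant members. The SD of log2 values was 0.237 in control and 0.27 in HS cells for bta-miR-34a, where counting alone gives at most 0.03. For bta-miR-449a it was 0.483 and 0.267, against at most 0.061, and for bta-miR-210 0.203 and 0.218, against at most 0.048. The median SD over all miRNAs tested was 0.278 in control and 0.196 in HS cells. For bta-miR-449c the SD of 0.06 in control cells was below the counting error of any single library of either group, which ran from 0.231 (39 reads, HS replicate 3) to 0.361 (16 reads, control replicate 1).

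The miRNAs with the profile most like each member, by Pearson's r of log2 values over the 6 libraries, are given as a description, since all values share the same libraries and scaling. bta-miR-449b was closest to bta-miR-449a (r = 0.929), followed by bta-miR-2285p (0.911) and bta-miR-34a (0.908). bta-miR-34a and bta-miR-449a correlated at 0.915 with each other, and at 0.792 once group means were removed. bta-miR-449a was closest to bta-miR-671 and bta-miR-199a-5p (0.983 each) and then bta-miR-455-3p (0.933). bta-miR-34a was closest to bta-miR-346 (0.926), bta-miR-95 (0.922) and bta-miR-455-3p (0.919). Of these, bta-miR-95 had an adjusted p of at most 0.2, rising from a control mean of 19.8 to an HS mean of 32.5 (limma adjusted p = 0.199 for 0.69 log2 units).

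bta-miR-210 and bta-miR-449a were less alike than bta-miR-34a and bta-miR-449a, a description with no test, though both were higher in every HS library than in every control library. Their r was 0.427 over the 6 libraries and -0.564 once group means were removed, and for bta-miR-210 and bta-miR-34a these were 0.581 and -0.056. bta-miR-210 was closest to bta-miR-2285f (0.974), bta-miR-194 (0.873) and bta-miR-181d (0.871). bta-miR-34c was closest to bta-miR-195 (0.932), bta-miR-29a (0.92) and bta-miR-199a-3p (0.903). bta-miR-449c, whose counts were low, was closest to bta-miR-3431 (0.826), bta-miR-126-5p (0.783) and bta-miR-2285o (0.722).

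Other miRNAs linked to the same pathways gave the setting for these values. Of 13 miRNAs linked to p53 by transcription or processing, 11 were matched and tested, and 0 had a limma adjusted p of at most 0.2, against 7.12% of all tested. An unadjusted limma p under 0.05 was also found for 0 of them, against 14.5% of all tested, 6 of the 11 were above 0 and the median log2 fold change was 0.01. The smallest p belonged to bta-miR-194, a p53-induced miRNA, at 198.7, 203.1 and 196.1 without HS and at 242.2, 219.7 and 269 with HS (limma adjusted p = 0.418 for 0.28 log2 units). The next was bta-miR-16a, a miRNA of the cell cycle whose processing p53 promotes, 0.19 log2 units higher in HS (limma adjusted p = 0.428). Of the 11, 3 had groups without overlap, with bta-miR-194 and bta-miR-16a higher and bta-miR-107 lower in HS cells, against 20.0% of all tested.

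Of 16 miRNAs linked to hypoxia besides bta-miR-210, all 16 were tested, and 0 had a limma adjusted p of at most 0.2 or an unadjusted p under 0.05, against 7.12% and 14.5% of all tested. The groups did not overlap for 2, bta-miR-199a-5p (HS higher) and bta-miR-107 (HS lower), against 20.0% of all tested. 6 of the 16 were above 0, and the median log2 fold change was -0.01. The list was not split by the direction in which hypoxia moves each miRNA, so this count and median do not measure a hypoxia response. bta-miR-199a-5p, a repressor of hypoxia-inducible factor 1, had the smallest p of this list, at 250, 324.4 and 307.6 without HS and at 326.8, 371.5 and 372.7 with HS (limma adjusted p = 0.463 for 0.29 log2 units). bta-miR-107, which is on both lists, had a control mean of 2291 ± 151.9 (SD) and an HS mean of 2000 ± 47.9 (SD), or -0.19 log2 units (limma adjusted p = 0.469). bta-miR-361, the reference of the study's droplet PCR, differed by -0.19 log2 units (limma adjusted p = 0.539).

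Because miR-34 and miR-449 are abundant in ciliated epithelia, 7 miRNAs of epithelial cells were set beside them. bta-miR-141 and bta-miR-205 were near 0, at group means of at most 0.938 and 1.57, while bta-miR-200b had means of 38.1 and 32.2 and bta-miR-200a of 25 and 25.4 in control and HS cells. bta-miR-200c, bta-miR-429 and bta-miR-375 lay between, at means of 3.42 to 6.68. The summed level of the 7 was 67.9 to 103 in control and 57.5 to 91.6 in HS libraries, with overlapping ranges. Of the 5 tested, 1 had groups without overlap, against 20.0% of all tested, and it was bta-miR-375 at 5.86, 6.08 and 5.85 in control libraries and a lower 3.98, 2.72 and 5.53 after HS (limma adjusted p = 0.441). Control replicate 1 had the fewest reads of listed miRNAs and was also the lowest for bta-miR-34a and bta-miR-449a. The paper gives it the most quality-passed reads of the control group, but the smallest share mapped to annotated miRNAs. Whether the read number or this share had a part in these values was not tested beyond leaving that library out. That gave log2 fold changes of 0.58 for bta-miR-449a and 0.37 for bta-miR-34a, against 0.52 for bta-miR-210.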

How the data were processed

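Small RNA libraries were made from total RNA, with unique molecular identifiers in the adapters. Upstream, the authors trimmed reads with Cutadapt 1.11, collapsed them by identifier, mapped them with Bowtie2 2.2.2 to the bovine assembly UMD3.1 and assigned them to miRBase miRNAs. The deposited signal is TMM-normalised CPM by the authors, a scaling which assumes that most miRNAs do not change. In every library 100% of the values were whole multiples of 1 step (tolerance 0.01 of a read), and the recovered whole reads gave the depth and the filter.

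The 7 members and the miRNA lists were chosen with earlier results of these data known. Testing used limma 3.58.1 (R 4.3.3) with a mean-variance trend on the log2 scale after adding a pseudocount of 1, over 365 miRNAs that passed the filterByExpr filter of edgeR 4.0.16. P-values were adjusted by Benjamini-Hochberg over all of them. Fold changes are on this log2(value + 1) scale, which understates changes of scarce miRNAs. A miRNA counted as called at an adjusted p up to 0.2, alone or together with a change of 1 log2 unit or more. Named miRNAs were the 7 members, the 3 miRNAs most like each tested member, those of the p53 and hypoxia lists with an adjusted p of at most 0.2 (or the 2 with the smallest p) and the PCR reference; markers of granulosa, blood and epithelial cells were named from their lists, and these and bta-miR-449d were picked after their values were seen. Seeds of the members were not checked, and a search for further miRNAs with the miR-34 seed was not made. Alternatives were other scalings, pseudocounts, filters and tests (DESeq2 1.42.0, edgeR quasi-likelihood, limma-voom), leaving out single libraries, and a replicate block. Tested on simulated reads, the fit recovered 88% of log2 changes of 1 and 99% of log2 changes of 2 among 365 miRNAs, and 6.03% of its calls were false. In that simulation 200 of the 365 were changed, which makes the adjusted threshold more lenient than in the data, where 26 were called. Changes under 1 log2 unit, the size of all members' reported changes, were not simulated, so these rates do not apply to them. Intervals and floors cover counting error only. Ratios used Python 3.11.15 and scipy 1.17.1. No replicates of a group held the same reads within sampling noise (chi-square per degree of freedom 84.3 to 431).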

Additional observations from a re-analysis of the deposited data

How the results depend on the processing

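The 6 tested members gave 124 comparisons with an alternative, of which 110 had the reported sign and side of the 0.2 threshold, 9 passed it in place of missing it and 5 had the other sign. bta-miR-34b, which had no test, was lower in HS cells under all 15 of its alternatives. bta-miR-449a passed it with the DESeq2 Wald test (log2 fold change 0.81), with the filter of 10 normalised counts (0.83, with 278 miRNAs tested) and with upper quartile factors on filtered miRNAs (1.02), and with single libraries omitted its values spanned 0.58 to 1.06. With upper quartile factors bta-miR-34a was at 0.67 and bta-miR-210 at 0.65. bta-miR-449c changed sign with the DESeq2 Wald test (0.028), DESeq2 size factors (0.004) and upper quartile factors (0.16), and with single libraries omitted its values spanned -0.087 to 0.092. The number of members past 0.2, reported as 0, was 3 with upper quartile factors, 1 with the DESeq2 Wald test and 1 with the stricter filter, and 0 to 1 with single libraries omitted. The number of all miRNAs past 0.2, reported as 26 with 11 higher in HS cells, was 14 without a filter and 8 to 29 with single libraries omitted (8 without HS replicate 2, 9 without HS replicate 3, 12 without control replicate 3 and 13 without HS replicate 1). It was 27 with 19 higher under upper quartile factors on filtered miRNAs, 34 with 7 higher under those on all listed miRNAs (chosen after the data were seen) and 25 with 8 higher under recomputed TMM factors. The cause of these moves was not tested. Against 365 miRNAs tested in the reported fit, 755 were tested without a filter and 373 to 379 with single libraries omitted. The stricter filter left 278, of which 29 were past 0.2. Omitting a library also left fewer libraries for the fit, and the upper quartile factors shifted the medians.

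At a detection minimum of 1, control cells had 7 members detected, and HS cells had 6, without bta-miR-34b. The log2 ratio of bta-miR-34c to bta-miR-34a was -0.16 with a pseudocount of 5, and spanned -0.30 to 0.25 with single libraries omitted. That of bta-miR-210 to bta-miR-34a ran from -0.26 to 0.15. The summed share over every miRNA with the miR-34 seed was not run.

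The labels give both groups replicates 1 to 3 and do not say that a number stands for shared cells. Deviations from the group means correlated at 0.421, -0.117 and 0.616 for numbers 1, 2 and 3, which does not establish that the numbers pair the libraries, and pairing is not stated in the labels. With the replicate block in limma 2 members were past 0.2, bta-miR-449a (limma adjusted p = 0.135 for 0.83 log2 units) and bta-miR-210 (limma adjusted p = 0.189 for 0.46). With the block in the edgeR quasi-likelihood test 1 was, bta-miR-449a (edgeR adjusted p = 0.134 for 0.80). Over all miRNAs the block moved the number past 0.2 from 26 to 27 in limma and from 25 to 31 in edgeR.

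For bta-miR-34b, bta-miR-34c and bta-miR-449c depth limits what can be seen.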

Other observations

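bta-miR-449d shares its name with the miR-449 miRNAs, but its gene lies apart from theirs, overlapping NAV2. Its reads numbered 30, 4 and 3 in the control libraries and 11, 5 and 5 in the HS libraries. Control replicate 1, at 14.7 normalised counts, was the highest, while the same library was the lowest for bta-miR-449a. bta-miR-449d did not pass the filter on low reads and was chosen after its values were seen.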
